A study of Mus musculus with 8 samples.

Results

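Ntrk2, Pard3b, Dnah11, Fhod3, Fras1, Caln1, Adgrv1, Gmds and Cmss1 are 9 mouse genes that each span more than 300 kb of the genome, lie outside the list of classic fragile site genes, and were lower in the livers of mice given MOCA than in control livers. They are 9 of the 15210 genes listed and 9 of the 12008 genes tested. They were chosen by their measured levels in these 8 livers, because they fell in the contrast of MOCA against control, so their levels, fold changes and calls below are a description of the choice and support nothing by themselves. Span, exon structure and sequence were used only through the 300 kb limit. The other 265 tested genes over 300 kb were measured in the same 8 livers and are those the choice left out. Their values are therefore not independent of it.

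The study measured liver RNA in 4 control females and 4 females treated with MOCA, 4,4'-Methylenebis(2-chlorobenzenamine), an aromatic amine used to harden polyurethane. The dose was 0.05% for 4 weeks against 0%, and the route is not given in the labels. All 8 mice are F1-TKm30: NOG mice, a strain that lacks mature lymphocytes and natural killer cells, carrying a transgene in which the transthyretin enhancer and promoter, active in hepatocytes, drives a mutant thymidine kinase of herpes simplex virus. By this strain label both groups carry the transgene and the immune deficiency. The treatment label names C57BL mice in place of this strain, and the names of all 8 value columns begin with the word Wild. The mice were 17 or 21 weeks old, without a statement of which mouse had which age, so a difference in age between the groups cannot be checked. Each title numbers a separate mouse.

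A very long gene is mostly intron. RNA polymerase II moves along it for hours before the first full transcript is released, so its output depends on elongation through the whole span as well as on initiation at the promoter. Lesions on the template strand and topoisomerase poisons are known to reduce the output of long genes more than that of short ones, and the longest genes of a cell often coincide with common fragile sites, regions that break under replication stress. The liver is not the main site of expression of most of these 9 genes: they are best known from neurons, cilia, heart muscle, epithelial basement membranes and the inner ear.

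The 9 genes have little in common apart from their span. The plot of span and structure shows how differently each span is filled. Positions are RefSeq gene records of the mouse build GRCm38.p6, and exon structure is that of the GENCODE M21 transcript with the longest coding sequence.

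**Figure D1:**
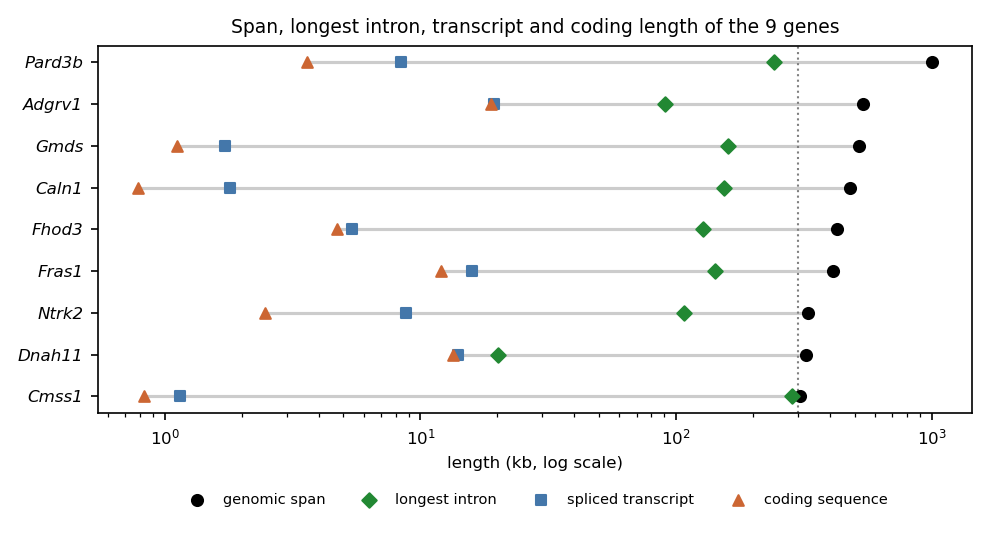
Genomic span, longest intron, spliced transcript and coding sequence of the 9 genes in kb on a log axis; the dotted line marks 300 kb. The spans run from 305 kb (Cmss1) to 1004 kb (Pard3b), while the spliced transcripts run from 1150 bases (Cmss1) to 19338 bases (Adgrv1).

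Pard3b is the longest, at chr1:61638667-62642284 on the plus strand, and 0.836% of its 1004 kb is exon. Adgrv1 lies at chr13:81095068-81633391 on the minus strand, with 90 exons in 538 kb and 6298 coding codons. Gmds, at chr13:31819583-32338762 on the minus strand, spreads 11 exons with 372 codons over 519 kb. Caln1, at chr5:130369404-130846325 on the plus strand, has 7 exons and 261 codons in 477 kb. These 4 genes show the contrast among the members: Adgrv1 encodes one of the largest proteins of the mouse, whereas Gmds and Caln1 encode small proteins in spans of similar size.

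Fhod3 lies at chr18:24708388-25133507 on the plus strand and has 27 exons in 425 kb. Fras1, at chr5:96373777-96784733 on the plus strand, has 74 exons and 4010 codons in 411 kb. Ntrk2, at chr13:58806472-59133970 on the plus strand, has 18 exons in 327 kb and a longest intron of 107.5 kb. Dnah11, at chr12:117877982-118199043 on the minus strand, has 82 exons in 321 kb, and its longest intron is only 20.1 kb. Cmss1, at chr16:57301999-57606867 on the minus strand, is the opposite case, since 1 intron of 283 kb takes 92.9% of its 305 kb. The median spliced length of the 9 was 8392 bases against 5217 for the 259 of the other 265 long genes with a structure, and the median number of exons was 23 against 18. The median longest intron was 142 kb against 130 kb.

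Where a member shares its span with another listed gene, the partner's values bear on how far reads could be mixed, since no source used here states whether the counting used strand. Filip1l lies on the opposite strand within Cmss1 and had a mean of 5.33 ± 0.793 (SD, n = 4) in control and 6.31 ± 0.409 in MOCA mice, the opposite direction to Cmss1 (limma adjusted p = 0.342). Tpgs2 overlaps Fhod3 on the opposite strand and had 6.49 ± 0.899 in control and 5.64 ± 0.299 in MOCA mice. Cdca7l overlaps exons of Dnah11 and was near the detection floor in both groups, at 0.276 and 0.251.

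Promoter sequence is shown next to set the starts of genes that moved in the same direction side by side. RefSeq windows of 250 bases before a gene start, found by symbol, were examined for only 7 of the 9 (Ntrk2, Pard3b, Dnah11, Caln1, Adgrv1, Gmds and Cmss1). No window of the remaining members was examined, whether or not one exists, so nothing is said of their starts. The start used in the 7 windows can lie inside the gene record. All 250 bases lie outside the record for Dnah11 and Cmss1, but only 196 for Caln1, 153 for Ntrk2, 93 for Pard3b, 32 for Gmds and 3 for Adgrv1. The stretches of 5 of them that lie outside the RefSeq gene record are printed in the direction of transcription, from RefSeq, build GRCm38.p6, with CpG dinucleotides in capitals. They are chr13:58806319-58806471 (plus strand) for Ntrk2, chr1:61638574-61638666 (plus) for Pard3b, chr12:118199044-118199293 (minus) for Dnah11, chr5:130369208-130369403 (plus) for Caln1 and chr16:57606868-57607117 (minus) for Cmss1. The final capital of the Ntrk2 stretch is the C of a CpG that runs past its end.
Ntrk2: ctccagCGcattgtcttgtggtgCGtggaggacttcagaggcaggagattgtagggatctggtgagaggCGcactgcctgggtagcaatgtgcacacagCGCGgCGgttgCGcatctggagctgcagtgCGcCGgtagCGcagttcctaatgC
Pard3b: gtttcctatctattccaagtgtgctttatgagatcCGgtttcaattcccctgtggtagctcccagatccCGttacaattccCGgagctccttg
Dnah11: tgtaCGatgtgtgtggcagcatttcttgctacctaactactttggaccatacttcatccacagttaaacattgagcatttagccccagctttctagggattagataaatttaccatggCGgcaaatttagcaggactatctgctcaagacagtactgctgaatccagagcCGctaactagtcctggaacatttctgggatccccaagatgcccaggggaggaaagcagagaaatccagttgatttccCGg
Caln1: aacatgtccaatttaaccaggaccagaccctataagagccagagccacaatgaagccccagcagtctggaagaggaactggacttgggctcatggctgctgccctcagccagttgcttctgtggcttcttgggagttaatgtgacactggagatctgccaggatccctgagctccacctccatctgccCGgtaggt
Cmss1: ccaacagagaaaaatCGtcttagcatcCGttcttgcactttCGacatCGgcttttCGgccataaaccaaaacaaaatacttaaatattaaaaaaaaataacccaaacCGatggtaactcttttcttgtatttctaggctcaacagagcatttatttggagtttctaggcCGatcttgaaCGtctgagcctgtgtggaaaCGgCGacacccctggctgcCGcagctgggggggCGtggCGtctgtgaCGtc

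The starts do not look alike. The Ntrk2 stretch holds 10 CpG in 153 bases and the Cmss1 stretch 14 in 250 bases, whereas that of Dnah11 holds 4 in 250 bases and that of Caln1 1 in 196 bases. Over the whole 250 bases, which for Gmds and Adgrv1 are mostly sequence inside the gene, the ratio of observed to expected CpG ran from 0.210 (Caln1) and 0.303 (Dnah11) to 0.947 (Gmds) and 1.06 (Cmss1), beside a median of 0.374 over all 32851 mouse windows. GC content ran from 46.0% (Dnah11 and Cmss1) to 78.4% (Gmds), beside a median of 52.4%.

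None of the 6 motifs searched on both strands of the whole windows was found in most of the 7 windows examined. CCAAT was found in Caln1 and Adgrv1, 2 of the 7 windows, and in 33.8% of all windows. The nuclear receptor half-site AGGTCA was in the same 2 windows and in 14.0% of all windows. The GC box GGGCGG matched 5 times, some matches overlapping, in Gmds alone, and was in 32.7% of all windows. The TATA box TATAAA was in 0 of the 7 windows and in 12.4% of all windows. For the E-box CACGTG it was 0 and 6.02%, and for the STAT motif TTCNNNGAA 0 and 7.02%. A match describes the letters only.

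The libraries held 15024945 to 17101844 reads, and every MOCA library was shallower than every control library. Values are normalised counts, TMM-scaled CPM as the authors deposited them, in which 1 read is worth 0.0581 to 0.0648. Over all tested genes limma called 32 lower and 48 higher in MOCA livers at an adjusted p under 0.05, so 0.266% of genes were called lower, and 4.96% of genes had all 4 MOCA values below all 4 control values, with 5.5% in the opposite order. Other scalings moved the split of higher and lower calls, to 131 and 38 with columns of equal sums and to 45 and 51 with upper quartile scaling. All 9 members were in both of these sets, which is how they came to be chosen, and nothing is read from that count. Members are given by role, with the value in each mouse, in the order of the mouse numbers, first. Fold changes are on the log2(value + 1) scale. The added 1 shrinks the fold of genes with few reads, so for those the edgeR estimate from whole reads is set beside it.

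**Figure D2:**
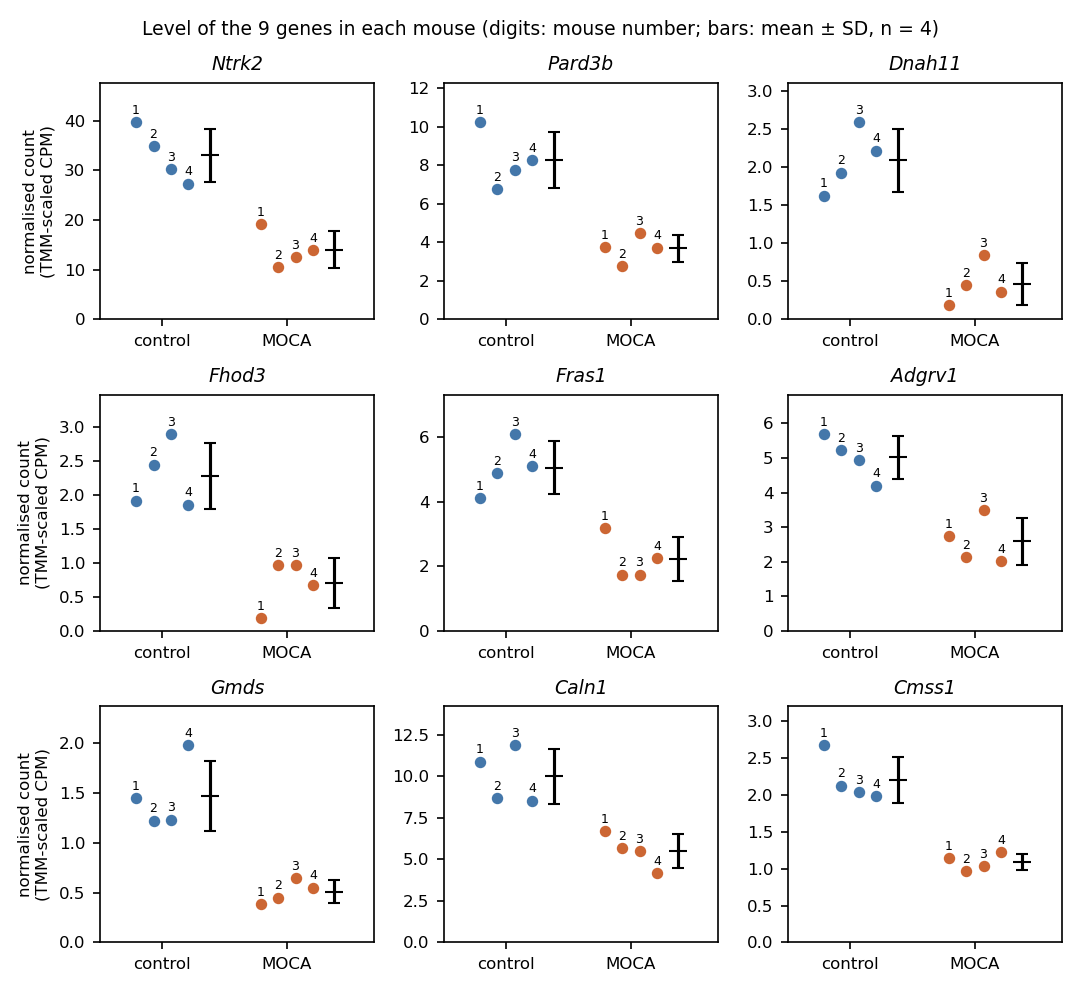
Normalised count (TMM-scaled CPM) of each of the 9 genes in each mouse; digits are mouse numbers and bars are the mean ± SD of 4 mice. In each panel the 4 MOCA mice lie below the 4 control mice, which is the pattern the genes were chosen for; the axes start at 0 and differ between panels.

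Ntrk2 encodes TrkB, the receptor tyrosine kinase for brain-derived neurotrophic factor, and was the member with the most reads. Its normalised counts were 39.6, 34.8, 30.2 and 27.3 in the control mice and 19.2, 10.6, 12.6 and 13.9 in the MOCA mice. The highest MOCA mouse lay well below the lowest control mouse. The means were 33.0 ± 5.40 and 14.1 ± 3.70 (SD, n = 4), so MOCA livers held 42.6% of the control level, a log2 fold change of -1.19 (SE 0.16). The spread between mice was 3.80 times the counting SD in controls and 3.91 times in MOCA mice, so here the mice, not the depth, set the error. Leaving out each mouse in turn gave log2 fold changes from -1.34 to -1.08, and the call was kept each time.

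Adgrv1 encodes a very large adhesion G protein-coupled receptor that forms links between stereocilia and is mutated in Usher syndrome. Its values were 5.69, 5.22, 4.94 and 4.20 in control and 2.74, 2.13, 3.50 and 2.02 in MOCA mice. MOCA mouse 3 came closest to the controls, 0.702 below control mouse 4. The mean fell from 5.01 ± 0.625 to 2.59 ± 0.681 (SD, n = 4), a log2 fold change of -0.75 (SE 0.14). The call was kept in 1 of the 8 fits without a mouse, and edgeR did not make it.

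Pard3b encodes a scaffold related to the polarity protein PAR3 and is found at cell junctions. Control mice had 10.2, 6.76, 7.78 and 8.28 and MOCA mice 3.75, 2.77, 4.47 and 3.73. Its groups were separated by 2.29, more than the SD of either. MOCA livers held 44.6% of the control mean of 8.26 ± 1.45 (SD, n = 4), a log2 fold change of -0.98 (SE 0.14). Ntrk2 and Pard3b were the members whose call no single mouse decided. Fits without a mouse reuse the livers of the choice, so a kept call adds no support for any member.

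Fhod3 encodes a formin that builds actin filaments in the sarcomeres of heart muscle. The values were 1.92, 2.45, 2.90 and 1.86 in control mice and 0.191, 0.967, 0.972 and 0.672 in MOCA mice. These are 31 to 47 reads in the controls and 3 to 15 in MOCA mice, the 3 reads being in MOCA mouse 1. The log2 fold change was -0.97 (SE 0.18) on the log2(value + 1) scale and -1.70 by edgeR on whole reads. None of the 8 fits without a mouse kept its call, with limma adjusted p from 0.0513 to 0.134.

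Dnah11 encodes an axonemal dynein heavy chain of the outer arm, a motor of motile cilia, and was the member that lost the largest share of its level. Control mice had 1.63, 1.93, 2.59 and 2.22 and MOCA mice 0.191, 0.451, 0.842 and 0.367. In reads this is 28 to 42 in the controls and 3 to 13 in the MOCA mice. MOCA livers held 22.1% of the control mean of 2.09 ± 0.412 (SD, n = 4), a log2 fold change of -1.09 (SE 0.16), or -2.17 by edgeR. Pooled reads gave 22.0% with an exact Clopper-Pearson 95% interval of 14.2% to 33.1%. This interval leaves out the spread between mice and makes no allowance for choosing the gene by its fall in these same reads. It also treats reads as independent molecules, which reads without molecular identifiers are not. The call was lost without control mouse 3 (limma adjusted p = 0.0509) and kept in the other 7 fits.

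Fras1 encodes an extracellular matrix protein of the Fraser complex, which fastens epithelia to the matrix below. Control mice had 4.13, 4.89, 6.11 and 5.10 and MOCA mice 3.18, 1.74, 1.75 and 2.26. MOCA mouse 1 and control mouse 1 were its nearest pair. The mean fell from 5.06 ± 0.817 to 2.23 ± 0.678 (SD, n = 4), a log2 fold change of -0.92 (SE 0.16), and 2 of the 8 fits without a mouse kept the call.

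Caln1 encodes calneuron 1, a calcium-binding protein of the Golgi related to calmodulin and studied mainly in neurons. Its values were 10.9, 8.69, 11.8 and 8.52 in control and 6.68, 5.67, 5.51 and 4.15 in MOCA mice. It lost the smallest share of its level among the 9: MOCA livers held 55.1% of the control mean of 9.98 ± 1.64 (SD, n = 4), a log2 fold change of -0.76 (SE 0.14). The call was kept in 1 of the 8 fits without a mouse.

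Gmds encodes GDP-mannose 4,6-dehydratase, the first enzyme of GDP-fucose synthesis from GDP-mannose. It had the fewest reads of the 9 in control mice, at normalised counts of 1.45, 1.22, 1.23 and 1.98, against 0.382, 0.451, 0.648 and 0.550 in MOCA mice. This rests on 19 to 33 reads in each control and 6 to 10 in each MOCA library. Pooled reads gave 34.3% of control with an exact 95% interval of 22.3% to 51.7%, under the same limits as that of Dnah11. The log2 fold change was -0.71 (SE 0.14), or -1.53 by edgeR. The call was lost whichever mouse was left out.

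Cmss1 encodes a protein related to a yeast factor of the small ribosomal subunit. Control mice had 2.67, 2.13, 2.04 and 1.98 and MOCA mice 1.15, 0.967, 1.04 and 1.22. It was the most uniform member: the spread between mice was 0.866 times the counting SD in controls and 0.429 times in MOCA mice, no more than counting itself would give. MOCA livers held 49.6% of the control level, a log2 fold change of -0.61 (SE 0.12), the smallest on the log2(value + 1) scale. Its call too was lost in each of the 8 fits without a mouse.

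Dnah11, Fhod3 and Gmds passed the filter on low values, at least 1 in 4 of 8 libraries, only through the control mice, since none of their MOCA values reached 1. In edgeR's quasi-likelihood test on whole reads, 7 of the 9 were called, Fhod3 and Adgrv1 not, beside 0.291% of all genes called lower. DESeq2 gave an adjusted p for 8 of the 9 and called all 8, beside 1.69% of all genes called lower. Gmds had no adjusted p. Both tests used the same 8 livers that the choice rested on, so nothing is read from these counts.

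The members' levels per kb of spliced transcript, a scale that allows for transcript length, had another order than their normalised counts. The length is that of the GENCODE transcript with the longest coding sequence, which need not be the form made in liver. The order below depends on that choice. In control mice Caln1 was first with 5.54 ± 0.910 normalised counts per kb (SD, n = 4) and Ntrk2 second with 3.77 ± 0.617. Cmss1 followed with 1.92 ± 0.277, then Pard3b with 0.984 ± 0.173 and Gmds with 0.860 ± 0.207. Fhod3 (0.422 ± 0.0906), Fras1 (0.319 ± 0.0516), Adgrv1 (0.259 ± 0.0323) and Dnah11 (0.149 ± 0.0292) came last. The mouse ranges of the neighbours Pard3b and Gmds, Fhod3 and Fras1, and Fras1 and Adgrv1 overlapped, so these pairs have no clear order. In MOCA mice Caln1 was at 3.06 per kb, Ntrk2 at 1.61 and Dnah11 at 0.0329.

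The mice that stood highest or lowest differed from gene to gene. Control mice 1 and 3 were each the highest control for 4 members, and control mouse 4 was the lowest control for 5. Averaged over the 9 genes, the log2 deviation from the control mean was -0.85, -0.99, -0.78 and -0.93 in MOCA mice 1 to 4. MOCA mouse 3 was the highest MOCA mouse for 5 members and MOCA mouse 2 the lowest for 4.

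The span classes of all genes place the members among other genes of their length. Of the 274 tested genes over 300 kb, 191 (69.7%) had a negative log2 fold change, against 48.9% of all tested genes. Without the 9 members it was 182 of 265 (68.7%), with a median of -0.09 beside 0.01 over all tested genes. With columns of equal sums 166 of the 274 were negative, and the median of all 274 was -0.05 beside 0.05. Leaving out each mouse in turn gave 174 to 205 negative values among the 274. All 4 MOCA values were below all 4 control values in 36 of these 265 genes (13.6%), beside 4.96% of all genes. limma called 6 of the 265 lower (2.26%) and 1 higher. Genes of 100 to 300 kb had 61.5% negative values and a median of -0.04, and the median was 0.02 up to 10 kb and 0.03 from 10 to 30 kb.

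**Figure D3:**
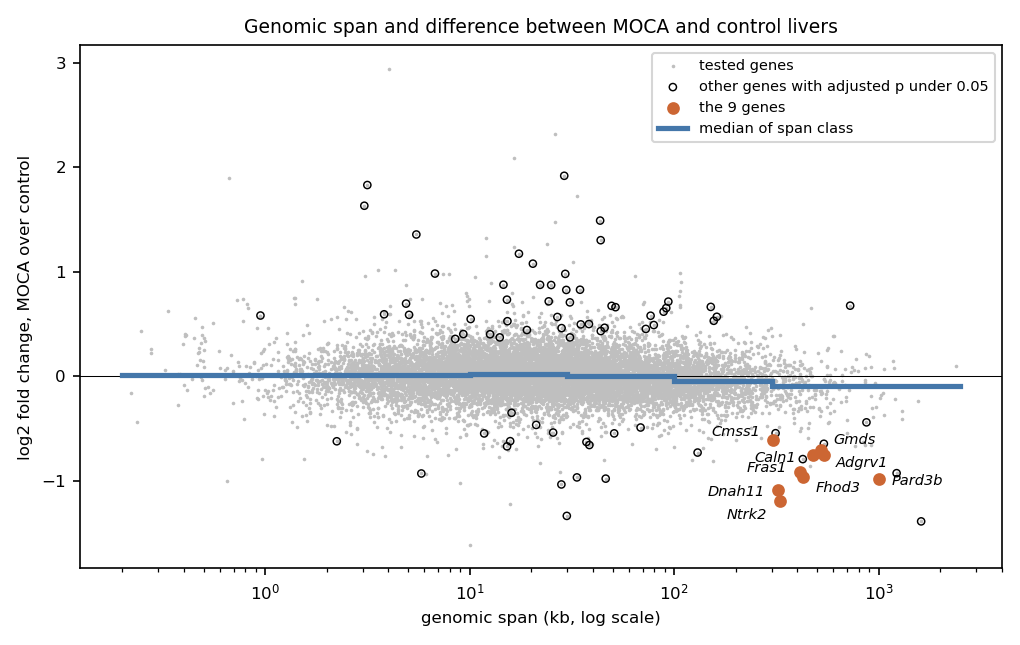
Log2 fold change of MOCA over control against genomic span in kb (log axis) for the tested genes with a known span; open circles are other genes called by limma, filled circles are the 9 members and the line is the median of each span class. The median is 0.02 for genes up to 10 kb and -0.10 for genes over 300 kb, and the 9 members lie below it at -0.61 to -1.19.

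The members stand at the low end of that class, by choice: their median was -0.92. They also have fewer reads, with a median level of 3.65 against 13.6 for the other 265. Among the 81 other genes over 300 kb with a mean of 2 to 10, the range that holds 4 of the members, 63 had a negative value, with a median of -0.16. The difference was smaller at other levels: with a mean under 2, which also holds 4 members, 20 of 36 were negative with a median of -0.05, and with a mean of 10 or more 99 of 148 with a median of -0.07. For genes up to 10 kb the medians at these 3 levels, from low to high, were 0.03, 0.03 and 0.0025.

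Per mouse, the median log2 deviation of the 265 other long genes from the control mean was 0.07, -0.05, 0.01 and -0.01 in control and -0.06, -0.09, -0.12 and -0.07 in MOCA mice. The lowest control and the highest MOCA mouse were close, and the groups did not overlap. Genes of 100 to 300 kb overlapped between groups, at 0.04, -0.04, 0.05 and -0.03 in control and -0.03, -0.03, -0.06 and -0.03 in MOCA mice. Control mice 1 and 3 were on the other side of zero from control mice 2 and 4 for genes up to 10 kb, so the controls differed among themselves by span class too.

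**Figure D4:**
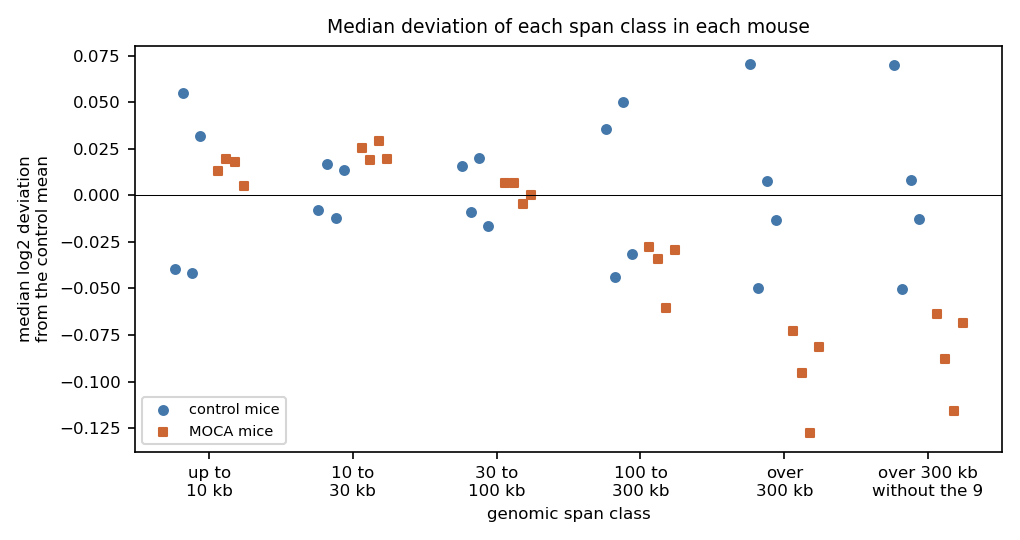
Median log2 deviation from the control mean of the genes of each span class in each mouse; circles are control and squares MOCA mice. Over 300 kb the MOCA mice lie at -0.13 to -0.07 and the control mice at -0.05 to 0.07; without the 9 members the MOCA mice lie at -0.12 to -0.06.

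Of the 6 other long genes called lower, Fhit, Park2, Large and Dpyd are on the list of classic fragile site genes, and 2 are not, Eda among them. Eda, the ectodermal signalling ligand ectodysplasin, spans 425 kb and fell from 3.29 ± 0.228 to 1.497 ± 0.434 (SD, n = 4). The 2 meet the description of the members without being among them. The fragile site list had 16 tested genes over 300 kb outside the members, with 4 called lower, 1 higher and a median of -0.26, and for the 249 remaining long genes the median was -0.08.

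Not every long gene was lower: 83 of the 265 had a positive log2 fold change. Exoc4, a subunit of the exocyst, was the 1 long gene limma called higher, from 24.9 ± 3.48 to 40.1 ± 2.12 (SD, n = 4), a log2 fold change of 0.68 with a limma adjusted p of 0.0131. Pard3, the close relative of Pard3b, spans 549 kb and had 88.4 ± 2.01 in control and 85.8 ± 5.15 in MOCA mice (limma adjusted p = 0.772). Pard3 and, below, partner genes other than the called ones or the 2 with the smallest p in their list were chosen after their values were seen. The largest rises after Exoc4 among long genes with a mean of at least 5 were Snrpn (3.85 to 6.49), Ncald (16.0 to 23.0), Frmd4b (47.8 to 63.1) and Mast4 (8.14 to 11.01), and limma called none of these 4, while DESeq2 called Snrpn, Ncald and Frmd4b. The largest falls outside the members, by the same rule, included Park2 (8.06 to 3.71), Wwox (6.68 to 3.90), Large (7.72 to 4.57) and Sugct (26.5 to 16.9), and Wwox (limma adjusted p = 0.0597) and Sugct (0.0661) were not called by limma or edgeR but were by DESeq2.

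At the 300 kb limit, Cmss1 at 304.9 kb is the member just inside. The genes just above the limit were Jazf1 (300.56 kb, log2 fold change -0.26), Cacna1a (301.6 kb, 0.39) and Pid1 (303.55 kb, 0.16). Just below it were Akap13 (299.1 kb, -0.02), Atp2b2 (298.8 kb, 0.46) and AW554918 (298.6 kb, -0.18).

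None of the tested partners of the members was called lower by limma. Lists of genes that act with each member held 242 names without the members, of which 161 were tested. limma called 0 of the 161 lower and 1 higher, beside 0.266% and 0.4% of all genes. An unadjusted limma p under 0.05 was found for 21 of the 161, beside 2098 of all 12008 tested genes. The count tests edgeR and DESeq2 called 1 and 4 in either direction. The median log2 fold change was -0.02, with 91 of 161 negative.

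Around Ntrk2, 8 of 17 neurotrophin ligands, receptors and adaptors were tested and 0 were called. Sort1, the sorting receptor sortilin, had 21.9 ± 2.09 in control and 15.5 ± 3.67 in MOCA mice (SD, n = 4; limma adjusted p = 0.125), and DESeq2 called it. The sister receptor Ntrk3 was too low to test, at 0.320 in control mice, as was the ligand Bdnf, at 0.348 in control and 0.411 in MOCA mice. Ngfr, the p75 receptor, had 8.19 in control and 7.07 in MOCA mice (limma adjusted p = 0.552).

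Around Pard3b, 18 of 20 genes of the PAR polarity complex were tested and 0 were called. Cdc42, the small GTPase that activates the complex, had 122 in control and 139 in MOCA mice (limma adjusted p = 0.174). Around Fhod3, 11 of 16 formins were tested and 1 was called, upward: Inf2, which also severs actin filaments, went from 27.2 ± 2.47 to 40.9 ± 4.84 (SD, n = 4; limma adjusted p = 0.0273). Fhod1, the sister of Fhod3, had 8.35 in control and 7.53 in MOCA mice.

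Around Dnah11, only 5 of 27 axonemal dyneins and dynein assembly factors reached the filter and 0 were called. Dnah8 had 1.44 ± 0.194 in control and 0.919 ± 0.0852 in MOCA mice (SD, n = 4; limma adjusted p = 0.174). Dnah5, another outer arm heavy chain that spans 317 kb, was below the filter, with 0.812 in control and 0.208 in MOCA mice and no overlap between groups. Dnah2, also below the filter, went the opposite way without overlap, with 0.486 in control and 0.715 in MOCA mice. Around Fras1, 5 of 13 genes of the Fraser complex and its adhesion partners were tested and 0 were called. Its partners Frem1 (0.989 in control, 0.603 in MOCA), Frem2 (0.593 and 0.400) and Grip1 (0.170 and 0.128) were below the filter.

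Around Adgrv1, 15 of 31 Usher proteins and adhesion receptors were tested and 0 were called. Whrn, the scaffold whirlin that binds Adgrv1 in the inner ear, had 1.65 ± 0.395 in control and 0.673 ± 0.472 in MOCA mice (SD, n = 4; limma adjusted p = 0.112). Around Gmds, 17 of 24 genes of GDP-fucose synthesis and fucosylation were tested and 0 were called. Tsta3, which carries out the next step after Gmds, had 15.8 in control and 17.2 in MOCA mice (limma adjusted p = 0.581). Fpgt, of the salvage route to GDP-fucose, had 16.4 ± 2.02 and 22.7 ± 1.26 (limma adjusted p = 0.0617), and DESeq2 called it higher.

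Around Caln1, 6 of 16 calmodulin-like calcium sensors and their partners were tested and 0 were called. Pi4kb, a Golgi lipid kinase inhibited by calneurons, had 57.4 in control and 51.2 in MOCA mice (limma adjusted p = 0.29). Around Cmss1, 31 of 32 genes of the small subunit processome were tested and 0 were called, with a median log2 fold change of -0.0030. For elongation factors and topoisomerases, which act on all long genes, 45 of 46 were tested and 0 were called, with a median of -0.02. Top1 had 64.1 in control and 64.8 in MOCA mice, and Top2b 67.4 and 66.4. Among 11 tested genes beside or overlapping the members limma and edgeR made 0 calls, and the median log2 fold change was 0.07. Of the 11, 4 had an unadjusted limma p under 0.05, beside 2098 of all 12008 tested genes. DESeq2 called Foxq1 lower and Mrpl1 higher. Foxq1, the neighbour of Gmds, had 17.4 ± 1.59 and 10.9 ± 2.72 (SD, n = 4; limma adjusted p = 0.0619).

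The genes whose pattern over the 8 mice was nearest to Ntrk2, Dnah11 and Pard3b, the 3 members with the largest falls on the log2(value + 1) scale, were taken among 9271 other genes with a mean of at least 5, by the root mean square difference of log2 deviations from the control mean. For Ntrk2 they were Smad9 (0.328), Park2 (0.340) and Csad (0.351), and the member Pard3b (0.288) was nearer than any of them. For Dnah11 they were Smad9 (0.253), Socs2 (0.276) and Onecut1 (0.288), and the member Fhod3 (0.184) was nearer. For Pard3b they were Park2 (0.191), Smad9 (0.210) and Socs2 (0.270). By share of the control level the largest falls were those of Dnah11, Fhod3 and Gmds, so another scale would choose other members. The measure is dominated by the group difference, and no test is attached to it.

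In bulk liver, fewer cells of a type and less RNA per cell cannot be told apart. Markers of 13 cell types gave 0 calls by limma, beside 0.266% of all tested genes called lower and 0.4% higher. With such shares and at most 12 markers tested per list, 0 calls say little about composition. The summed level of some lists differed between the groups without overlap. How often sums of other lists would do so was not measured. Hepatocyte markers, 12 of 12 of them negative, summed to 133804 to 154392 in control and 114667 to 131643 in MOCA mice. Hepatic stellate cell markers, 9 of 12 negative, summed to 709 to 773 and 587 to 700.8, and sinusoidal endothelial markers, 8 of 10 negative, to 564 to 651 and 537 to 560. Erythroid markers were higher in MOCA mice, 475 to 529 against 253 to 444. The sums of the other 9 lists overlapped between groups. Of the Schwann cell and neuron markers, Sox10, Cdh19, Snap25, Tubb3 and Nefl were not listed at all, and the other 4 summed to at most 2.28 in control mice. The part of cell composition, and of the lower depth of the MOCA libraries, in the 9 falls was not tested.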

How the data were processed

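The labels describe liver RNA from 4 control and 4 MOCA-treated female mice, with 200 ng of RNA per directional library after removal of ribosomal RNA. The submitters' processing notes name Trimmomatic 0.38, Bowtie2, RSEM, edgeR and the build mm10, without their roles. The authors deposited 1 table of normalised counts, a scaled signal per gene and mouse. Dividing each column by its smallest step gave whole reads for 100% of values (tolerance 0.001), and the steps equal those of TMM-scaled CPM from edgeR. The lowest total of a listed gene was 8 reads.

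limma 3.58.1 (R 4.3.3) was run on log2(value + 1) with eBayes and a trend, without covariates, on the 12008 genes with at least 1 in 4 of 8 libraries, with Benjamini-Hochberg adjustment over all of them and a threshold of 0.05. The whole reads were also tested with edgeR 4.0.16 (quasi-likelihood), which called 46 genes higher and 35 lower, and with DESeq2 1.42.0. Alternatives were other pseudocounts, filters, scalings and eBayes settings, sample weights, a replicate block, other span limits and leaving out each mouse. The procedure was tested on simulated reads, with changes placed only in genes with a mean of at least 2. That setting does not cover the 4 members with a mean under 2, and nothing above rests on it. Replicates of a group differed by more than sampling noise (chi-square over degrees of freedom at least 13.2). Spans come from RefSeq, matched for 99.6% of genes, and structures from GENCODE M21 for 95.9%. The 9 genes and all lists were chosen with earlier results of these data known. Named genes outside the members are, in each list, the called genes or the 2 with the smallest p, the 5 largest rises and falls among long genes with a mean of at least 5, the nearest patterns, overlapping genes and neighbours of the span limit. Others were chosen after their values were seen. Some genes that this rule names are not reported here.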

Additional observations from a re-analysis of the deposited data

How the results depend on the processing

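The log2 fold change of each of the 9 genes was negative in every alternative fit that held the gene. The genes were chosen for falling in these same values, so this sign supports nothing. DESeq2 called 222 genes higher and 203 lower, with 25 lower and 5 higher over 300 kb and 5 higher among the role lists, fragile site genes and neighbours together, where limma called 2 higher and 4 lower. Columns scaled to equal sums, which moved the median of all genes from 0.0051 to 0.05, gave 131 higher and 38 lower, 2 higher over 300 kb and 5 higher in the lists. Upper quartile scaling gave 45 higher and 51 lower, and robust eBayes 53 lower. With a mean of at least 5 only 3 members were tested, all 3 called, and 7 long genes were lower. A span limit of 500 kb left 7 lower. Same-numbered mice did not deviate together (correlations -0.07 to 0.04). A replicate block gave 20 higher and 10 lower, 6 lower over 300 kb, 2 lower in the lists and 4 members called. Without 1 mouse at a time, limma called 21 to 42 higher and 8 to 35 lower, 5 to 11 lower and 1 to 2 higher over 300 kb, 1 to 2 higher and 3 to 5 lower in the lists, and 2 to 5 members. The cause was not tested, apart from the fewer genes or mice in some fits. Dnah11, Fhod3 and Gmds had only 3 to 15 reads per MOCA library, and the size of their falls is known least well. Their spread between MOCA mice was 1.61, 1.75 and 0.647 times the counting SD.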
